A study of Homo sapiens with 12 samples.

Results

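This account covers 10 genes whose proteins copy, write or remove DNA methylation: UHRF1, UHRF2, DNMT1, HELLS, CDCA7, DNMT3A, DNMT3B, TET1, TET2 and TET3. They were chosen by gene symbol, as a group proposed with the knockdown-against-control values of these arrays already in view, in which CDCA7 was known to be among the lowest changes under mix 1. All changes against control are therefore descriptions of these genes; the adjusted p-values place each gene within a fit over all genes and do not support the choice of the group, and CDCA7 is given without them. The platform annotation names these genes on 22 of the 41091 probe sets with exactly 1 gene symbol. All 10 genes were among the 13225 that passed a filter on low values, and 20 of their 22 probe sets lay above it.

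The cells were MDA-MB-231, a mesenchymal triple-negative human breast cancer line. They were transfected with YAP/TAZ siRNA mix 2, YAP/TAZ siRNA mix 1 or a control siRNA, each at 33 nM on day 2, and RNA was taken on day 4. Both mixes are directed at YAP (gene YAP1) and TAZ (gene WWTR1), transcriptional coactivators restrained by the Hippo kinases that act on DNA mainly through TEAD factors. Each group had 4 replicates (A to D), 1 Affymetrix gene expression array each, which the labels call independent and which were handled side by side. All 12 arrays come from this 1 line, with no untransfected group.

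Methyl groups sit on the cytosines of CpG pairs on both DNA strands. When DNA is copied, the new strand lacks them; UHRF1 recognises such hemimethylated sites and brings in DNMT1, which restores the mark, while HELLS and CDCA7 form a remodelling complex that opens nucleosome-packed DNA for this step. DNMT3A and DNMT3B write methylation on unmarked DNA. The TET enzymes oxidise methylcytosine, which leads to its loss, and the maintenance genes are best known as part of the S phase programme of dividing cells that E2F transcription factors drive.

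The promoters of the maintenance genes differ in whether they hold an E2F motif, searched as TTTCCCGC, TTTCGCGC, TTTGCCGC or TTTGGCGC on both strands in the 250 bases before each RefSeq transcript start (GRCh38.p14). Of 27305 annotated genes 3.4% hold one in any such window. Among the 10 genes here 3 did: UHRF1, HELLS and CDCA7. The last 100 bases before the start are shown for these, for DNMT1, which holds none, and for UHRF2, the paralogue of UHRF1, which holds none either; for UHRF1 the most upstream of 3 starts is shown. Capitals mark the E2F motif.
UHRF1, chr19:4909401-4909500, plus strand: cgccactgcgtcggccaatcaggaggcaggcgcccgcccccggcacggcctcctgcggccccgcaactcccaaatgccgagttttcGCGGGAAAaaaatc
CDCA7, chr2:173354772-173354871, plus strand: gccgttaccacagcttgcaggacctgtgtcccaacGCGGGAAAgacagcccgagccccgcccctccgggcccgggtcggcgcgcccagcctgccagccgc
HELLS, chr10:94545688-94545787, plus strand: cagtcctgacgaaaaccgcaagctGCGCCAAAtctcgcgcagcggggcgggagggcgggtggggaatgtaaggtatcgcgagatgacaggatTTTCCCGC
DNMT1, chr19:10194954-10195053, minus strand: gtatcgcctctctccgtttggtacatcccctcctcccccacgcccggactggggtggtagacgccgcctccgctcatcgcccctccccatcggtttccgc
UHRF2, chr9:6413099-6413198, plus strand: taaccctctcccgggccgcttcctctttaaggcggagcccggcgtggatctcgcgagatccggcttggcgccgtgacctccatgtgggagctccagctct

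At the UHRF1 start shown the motif lay 14 to 7 bases before it; a second UHRF1 start had one, TTTCGCGC, 160 to 153 bases before it, and the third had none. CDCA7 held 1, at 65 to 58 bases, and HELLS 2 before its single start, at 76 to 69 and at 8 to 1 bases. The TEAD motif GGAATG (14.3% of genes) was found for HELLS, 38 to 33 bases before the start, and for 1 of 3 starts of TET1. The CHR motif TTTGAA (16.1%), a cell cycle element, was found only for TET2 among the 10 genes and the AP-1 motif TGANTCA (8.06%) for none. A match is a description of these letters and not a measured binding site.

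The arrays gave log2 levels with medians of 5.69 to 5.78, and 2 arrays of 1 group correlated over genes at 0.993 to 0.998. Both targets were lowered: YAP1 was left at 11.9% of control with mix 2 and 12.4% with mix 1, and WWTR1 at 18.3% and 19.8%. Markers of the line were high (VIM 14.37 log2 with mix 2, 14.40 with mix 1 and 14.28 in control), 5 of 6 being above the filter value of 5.46 in each group and SPARC below it. In the same order AXL was at 12.83, 12.13 and 13.24, CD44 at 11.93, 11.96 and 12.22, MSN at 12.91, 12.44 and 12.83, and CAV1 at 13.0, 12.83 and 13.14. The summed linear level of the 6 was 47600 to 49200 with mix 2 and 41100 to 44400 with mix 1, against 49600 to 51800 in control. Of 5 luminal markers 2 (ESR1 and ERBB2) were above the filter value in each group and CDH1, PGR and FOXA1 below it, and of 3 endothelial markers PECAM1 and VWF were above it and CDH5 below it. PECAM1 was at 7.88 log2 with mix 2 and 8.62 with mix 1, against 6.54 in control. Of 4 fibroblast markers 3 were above it with mix 2, 2 with mix 1 and 2 in control. Of 4 measured leukocyte markers 3 were above it with mix 2, 3 with mix 1 and 1 in control, with PTPRC below it in all groups. The summed linear level of the leukocyte markers was 694 to 836 with mix 2 and 625 to 841 with mix 1, against 150 to 162 in control. LYZ rose most, at 9.18 log2 with mix 2 and 9.14 with mix 1, against 4.96 in control. In the same order CD14 was at 6.39, 6.26 and 5.15, CD3E at 6.06, 6.08 and 6.17, and PTPRC at 4.47, 3.8 and 4.04. The sum thus mainly follows LYZ and does not stand for all leukocyte markers. The summed level was 280 to 318, 433 to 500 and 138 to 173 for 3 endothelial markers in the same order. Of these, PECAM1 rose, while VWF was at 5.6, 5.52 and 5.57 log2 and CDH5 at 3.93, 3.92 and 3.97. The sums were 543 to 611, 709 to 953 and 211 to 283 for 4 fibroblast markers, and 373 to 388, 335 to 391 and 327 to 362 for 5 luminal markers. The part of these shifts in the results here was not tested.

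The maintenance genes UHRF1, DNMT1, HELLS and CDCA7 were all lower with both mixes than with control siRNA, by 2.64-fold to 13.9-fold, whereas UHRF2 differed from control by -0.14 and 0.08 log2 without passing the test. TET1 was higher with both mixes, and the remaining genes moved less or differently with each mix. With mix 2 against control, 4 of the 10 genes were called lower at an adjusted p below 0.05 (31.9% of all genes were) and 3 higher (36.7% of all genes). With mix 1, 5 were lower (32.3% of all genes) and 4 higher (34.8%). These shares are close to the background, so the counts say nothing particular about the group; the sizes are given gene by gene below. The median change of the 10 genes was -0.20 log2 with mix 2 and -0.12 with mix 1, beside 0.03 and 0.01 for all genes.

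**Figure D1:**
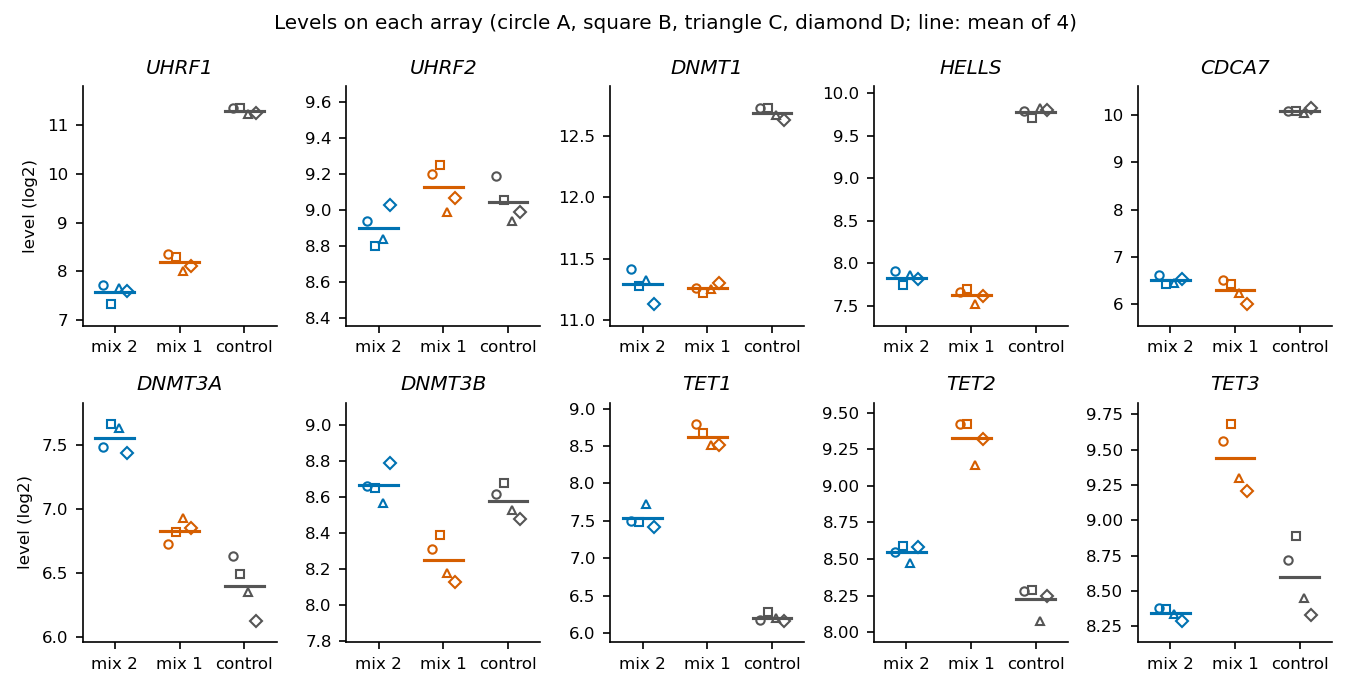
Level of each of the 10 genes on every array (log2, vertical axis, scaled per gene), in mix 2, mix 1 and control from left to right; symbols are replicates A to D and lines the means of 4. UHRF1, DNMT1, HELLS and CDCA7 lie far below control with both mixes, and TET1 lies above it, higher with mix 1 (8.51 to 8.79) than with mix 2 (7.42 to 7.72).

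UHRF1, the reader of hemimethylated DNA, was at 7.72, 7.33, 7.67 and 7.60 log2 on arrays A to D of mix 2. It was at 8.35, 8.29, 8.01 and 8.11 with mix 1, against 11.35, 11.35, 11.23 and 11.24 in control. The 3 groups did not overlap, and every mix 2 array lay below every mix 1 array. UHRF1 fell by 3.71 on the log2 scale with mix 2 (SE 0.09, limma adjusted p = 1.74e-13), which left 7.63% of the control level, and it fell by 3.10 with mix 1 (SE 0.09, adjusted p = 1.2e-12), which left 11.6%. Among the changes of all 13225 genes, UHRF1 held place 18 from the bottom with either mix. In RNA of whole cultures, fewer cells in S phase and less transcript per cell cannot be told apart.

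UHRF2, its paralogue, had 8.94, 8.80, 8.84 and 9.03 log2 on the arrays of mix 2 and 9.20, 9.25, 8.99 and 9.07 with mix 1, against 9.19, 9.06, 8.94 and 8.99 in control. All 3 groups overlapped. The change was -0.14 with mix 2 (95% interval -0.31 to 0.02, adjusted p = 0.116) and 0.08 with mix 1 (-0.08 to 0.25, adjusted p = 0.367), so a change of the size seen for UHRF1 lies far outside either interval. Without mix 2 replicate D the change with mix 2 passed (-0.19, adjusted p = 0.0497).

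DNMT1, the enzyme that copies methylation to the new strand, was at 11.42, 11.28, 11.33 and 11.13 log2 with mix 2 and at 11.26, 11.22, 11.25 and 11.30 with mix 1, against 12.73, 12.73, 12.67 and 12.63 in control. The arrays of the 2 mixes overlapped each other and lay more than 1 log2 unit below every control array. DNMT1 changed by -1.40 with mix 2 (SE 0.06, adjusted p = 5.49e-11) and by -1.43 with mix 1 (SE 0.06, adjusted p = 5.22e-11), leaving 37.9% and 37.0% of control. It has 1 probe set, of the kind that can bind transcripts of related genes.

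HELLS, the nucleosome remodeller of the pathway, was read by 5 probe sets, all of which were lower with both mixes. The brightest was at 7.91, 7.75, 7.86 and 7.81 log2 with mix 2 and 7.66, 7.70, 7.52 and 7.62 with mix 1, against 9.79, 9.71, 9.83 and 9.80 in control. This left 25.9% of the control level with mix 2 (-1.95, SE 0.06, adjusted p = 8.91e-13) and 22.4% with mix 1 (-2.16, SE 0.06, adjusted p = 5.03e-13). Over the 5 probe sets the change ran from -2.82 to -1.89 with mix 2 and from -2.41 to -1.67 with mix 1, so all 5 gave the same direction but not the same size. The smallest changes came from a probe set with knockdown levels of 4.85 to 5.08 (mix 2) and 4.95 to 5.47 (mix 1), around or below the filter value, and a further one reached down to 4.87 with mix 2; signals this low can limit the size.

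CDCA7, the DNA-binding partner that brings HELLS to chromatin, had 6.62, 6.42, 6.45 and 6.53 log2 with mix 2 and 6.51, 6.42, 6.23 and 6.0 with mix 1, against 10.08, 10.09, 10.03 and 10.15 in control. The knockdown arrays lay at least 3 log2 units below control. Its level was 8.35% of control with mix 2 (-3.58, SE 0.09) and 7.19% with mix 1 (-3.80, SE 0.09), which was place 24 and place 4 from the bottom of all genes. This probe set, like that of DNMT1, is of the kind that can bind transcripts of related genes. The other, dimmer probe set is not; it changed by -2.70 and -2.68, which left 15.4% and 15.6% of control, with knockdown levels of 4.85 to 5.36 below the filter value. The size of the CDCA7 change thus differed between its probe sets. CDCA7L, the paralogue of CDCA7 and a member of the list of maintenance partners named here after its values were seen, was at 12.11 ± 0.05 with mix 2 and 11.22 ± 0.03 with mix 1, against 12.14 ± 0.04 in control (SD, n = 4 each). It fell with mix 1 (-0.91, adjusted p = 6.08e-10) and did not pass with mix 2 (-0.03, adjusted p = 0.653).

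Of the enzymes that write new methylation, DNMT3A was higher with both mixes on its 2 brighter probe sets. The brightest had 7.48, 7.66, 7.63 and 7.44 log2 with mix 2 and 6.73, 6.82, 6.93 and 6.85 with mix 1, against 6.63, 6.49, 6.35 and 6.13 in control. Mix 2 stood clear above mix 1 and mix 1 stood above control by a narrow margin at the nearest arrays. The rise was 1.15 with mix 2 (SE 0.09, adjusted p = 4.53e-08) and 0.43 with mix 1 (SE 0.09, adjusted p = 0.000891). In a fit of all 41091 probe sets the second probe set, of the kind that can bind transcripts of related genes, rose by 0.91 (adjusted p = 7.87e-07) and 0.43 (adjusted p = 0.00147). The dimmest one went the other way, by -0.22 with mix 2 (adjusted p = 0.0253) and -0.59 with mix 1 (adjusted p = 5.82e-06), at levels of 4.85 to 5.63 around the filter value. Probe sets of 1 gene can read different transcripts; which ones these read was not examined.

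DNMT3B was at 8.66, 8.65, 8.57 and 8.79 log2 with mix 2 and 8.31, 8.39, 8.18 and 8.13 with mix 1, against 8.62, 8.68, 8.53 and 8.48 in control. Mix 2 overlapped control and mix 1 lay just below both. The DNMT3B probe set is of the kind that can bind transcripts of related genes. The change was 0.09 with mix 2 (95% interval -0.07 to 0.25, adjusted p = 0.292) and -0.33 with mix 1 (SE 0.07, adjusted p = 0.00106), which left 79.8% of control.

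TET1, an oxidase that binds CpG-rich DNA, was at 7.50, 7.49, 7.72 and 7.42 log2 with mix 2 and at 8.79, 8.67, 8.51 and 8.51 with mix 1, against 6.18, 6.28, 6.20 and 6.17 in control. No 2 groups overlapped. The level was 2.51-fold that of control with mix 2 (1.33, SE 0.08, adjusted p = 1.08e-09) and 5.32-fold with mix 1 (2.41, SE 0.08, adjusted p = 2.91e-12), place 122 from the top of all genes with mix 1. Its other probe set rose by 1.41 and 2.05 log2 (adjusted p = 8.65e-07 and 1.36e-08 over all probe sets), with control levels of 4.09 to 4.31 that lay below the filter value. That probe set is of the kind that can bind transcripts of related genes, and its mean over all arrays (5.39) also lay below the filter value.

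TET2, which lacks the CpG-binding domain of TET1, had 8.55, 8.59, 8.47 and 8.58 log2 with mix 2 and 9.42, 9.42, 9.14 and 9.32 with mix 1, against 8.28, 8.29, 8.08 and 8.25 in control. The groups were ordered mix 1, mix 2, control with no overlap. With mix 1 the rise was 1.10 (SE 0.07, adjusted p = 4.2e-09). A second probe set, of the kind that can bind transcripts of related genes, rose by 0.90 (adjusted p = 9.55e-08). With mix 2 the rise was 0.32 (SE 0.07, adjusted p = 0.00104), and the second probe set did not pass (0.10, adjusted p = 0.354); the mean of the gene's probe sets gave 0.37 (adjusted p = 0.0615).

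TET3 was at 8.38, 8.37, 8.34 and 8.29 log2 with mix 2 and 9.56, 9.68, 9.30 and 9.21 with mix 1, against 8.72, 8.89, 8.45 and 8.33 in control. Mix 1 lay above control on every array, while mix 2 overlapped the low end of control. The rise with mix 1 was 0.84 (SE 0.12, adjusted p = 1.88e-05), and a second probe set rose by 0.49 (adjusted p = 0.00055) but the dimmest did not pass (-0.01, adjusted p = 0.94). With mix 2 the change was -0.25 (95% interval -0.51 to 0.01, adjusted p = 0.0767), which passed without control replicate D (-0.34, adjusted p = 0.02). The dimmest TET3 probe set overlapped in all 3 groups.

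**Figure D2:**
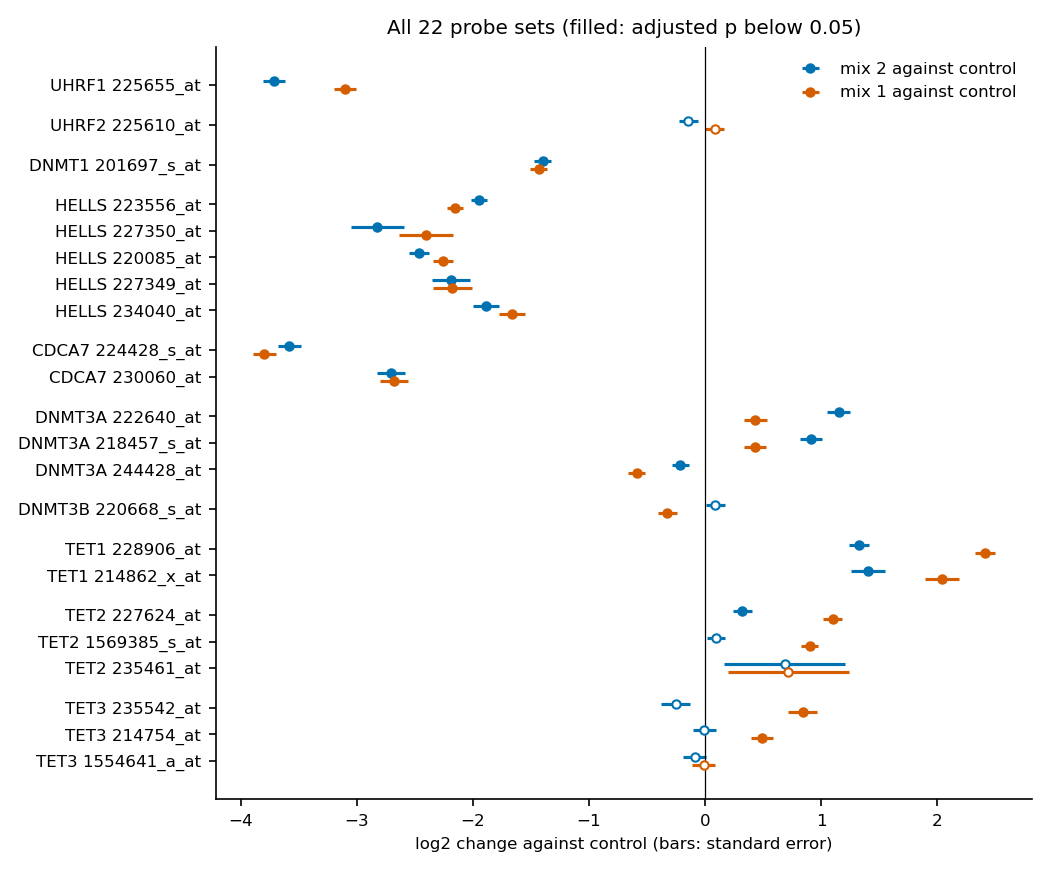
Change against control of each of the 22 probe sets (log2, horizontal axis), blue for mix 2 and orange for mix 1, with standard errors; filled points have an adjusted p below 0.05 over all 41091 probe sets. The probe sets of UHRF1, DNMT1, HELLS and CDCA7 all lie left of -1, both TET1 probe sets lie right of 1, and the 3 probe sets of DNMT3A fall on both sides of 0.

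At the level of probe sets, 10 of 22 were called lower with mix 2 (21.4% of all probe sets) and 5 higher (22.9%), and with mix 1 11 were lower (21.2%) and 8 higher (22.0%). Since HELLS alone contributes 5 of these probe sets, they are not independent readings of the group.

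**Figure D3:**
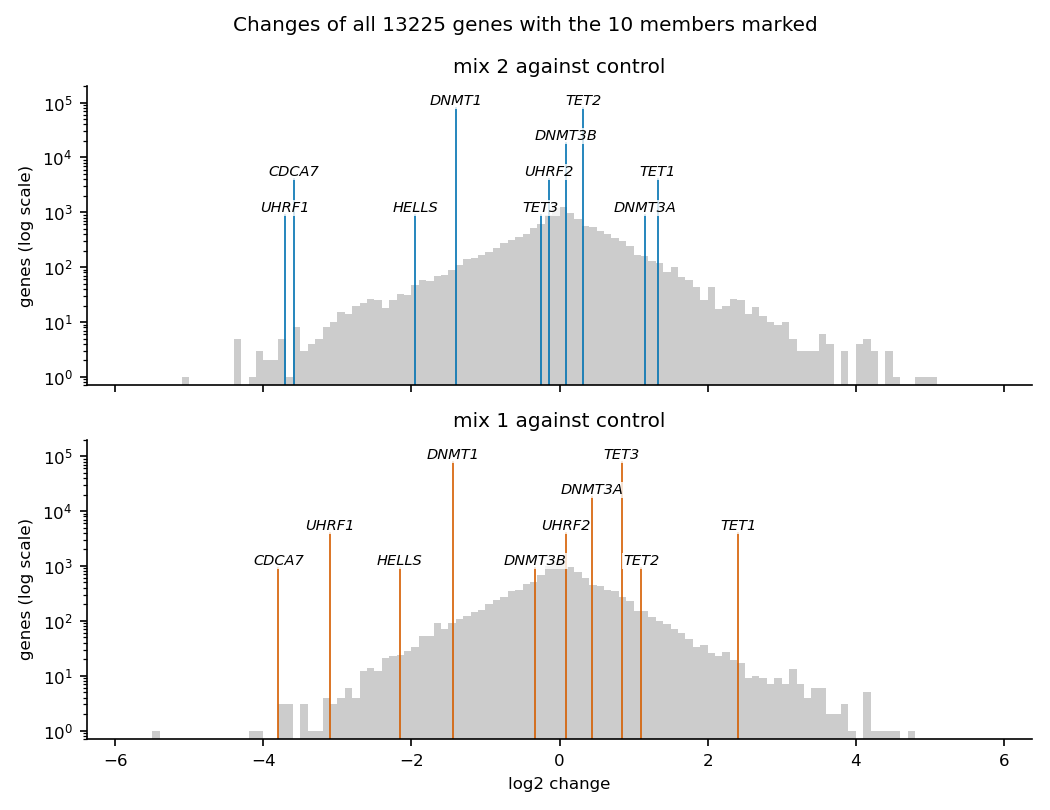
Changes of all 13225 genes (log2, horizontal axis; number of genes on a log scale) for mix 2, top, and mix 1, bottom, with the 10 genes marked. UHRF1 and CDCA7 lie in the far lower tail under both mixes, while UHRF2 and DNMT3B lie near the centre.

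The 2 siRNA mixes were also set against each other, to see where they moved these genes unequally. With mix 2 against mix 1, 5 of the 10 genes were lower (25.0% of all genes) and 3 higher (28.7%), and 7 of 22 probe sets were lower (15.9% of all probe sets) and 5 higher (16.2%). On their brightest probe sets the 3 TET genes were all lower with mix 2 than with mix 1, by -1.09 for TET1 (SE 0.08, adjusted p = 3.1e-08), -0.78 for TET2 (SE 0.07, adjusted p = 4.47e-07) and -1.09 for TET3 (SE 0.12, adjusted p = 2.52e-06). Their mix 2 levels were 47.1%, 58.3% and 46.9% of those with mix 1. The other TET1 probe set differed by -0.64, those of TET2 by -0.80 and -0.03, and those of TET3 by -0.50 and -0.08. The -0.03 and -0.08 did not pass over all probe sets (adjusted p = 0.977 and 0.619). The de novo enzymes ran the other way, DNMT3A by 0.72 (adjusted p = 1.46e-05) and DNMT3B by 0.42 (adjusted p = 0.00021), with all 3 probe sets of DNMT3A higher with mix 2 (0.38 to 0.72).

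Among the maintenance genes, UHRF1 was lower with mix 2 than with mix 1 (-0.61, SE 0.09, adjusted p = 5.47e-05). For DNMT1 the difference was 0.03 with a 95% interval of -0.10 to 0.17 (adjusted p = 0.697). CDCA7 differed by 0.22 (0.02 to 0.42) on its brighter probe set, which did not pass after adjustment (adjusted p = 0.0657). That difference passed without mix 1 replicate A (0.29, adjusted p = 0.0152) or B (0.26, adjusted p = 0.0447). The dimmer CDCA7 probe set, with knockdown levels below the filter value, differed by -0.02 (adjusted p = 0.932 over all probe sets). No direction is therefore given for CDCA7. HELLS was higher with mix 2 on its brightest probe set (0.21, adjusted p = 0.00752), while the other 4 differed by -0.42 to -0.01 and the mean of its probe sets by -0.13 (adjusted p = 0.141), so no direction is given for it. UHRF2 was lower with mix 2 (-0.23, adjusted p = 0.0233). That call was lost without mix 2 replicate B (adjusted p = 0.0723) or C (0.0626) or without mix 1 replicate A (0.0639) or B (0.0748).

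**Figure D4:**
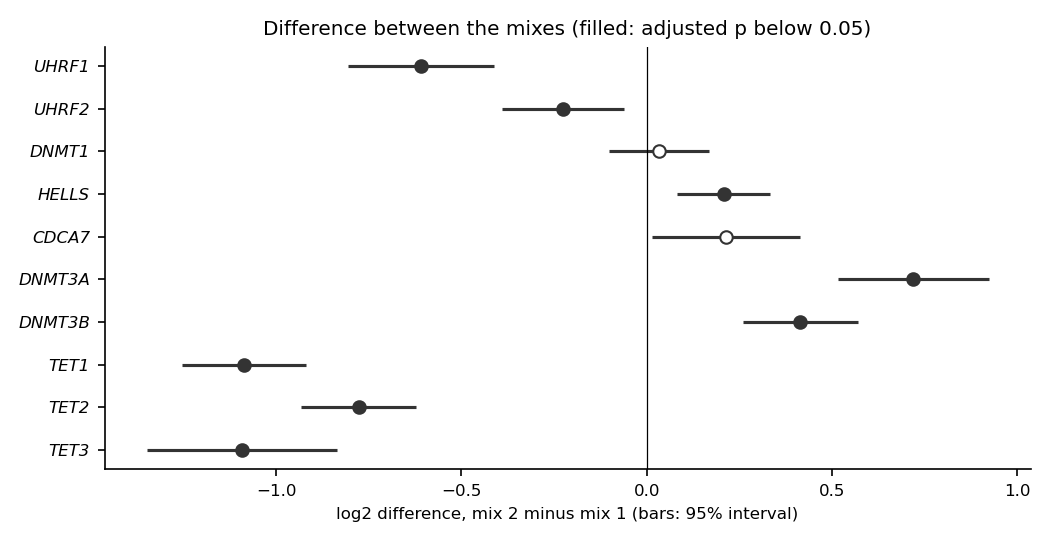
Difference of mix 2 minus mix 1 for the 10 genes (log2, horizontal axis) with 95% intervals; filled points have an adjusted p below 0.05. The 3 TET genes lie between -1.09 and -0.78, DNMT3A and DNMT3B right of 0, and DNMT1 at 0.03.

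The other genes of the pathway were followed as lists. Beside their counts stand the shares of all genes: 31.9% were called lower and 36.7% higher with mix 2. With mix 1 the shares were 32.3% lower and 34.8% higher. Counts near these shares say nothing particular about a list. Of 12 maintenance partners, 8 were lower and 2 higher with mix 2, and 8 lower and 1 higher with mix 1 (median -0.74 and -0.69 log2, beside 0.03 and 0.01 over all genes). The replication clamp PCNA, which tethers DNMT1 to the fork, changed by -1.37 with mix 2 (adjusted p = 9.03e-10) and by -1.56 with mix 1 (adjusted p = 2.61e-10). DNA ligase LIG1, a binding partner of UHRF1, fell (-1.44 and -1.49, adjusted p = 2.18e-09 and 1.75e-09). The histone methyltransferase SETDB1 rose by 0.44 and 0.38 (adjusted p = 0.000618 and 0.00187). ZBTB24, a zinc finger factor that activates CDCA7 and is named here after its values were seen, changed by -1.25 with mix 2 (adjusted p = 1.54e-10) and by -0.91 with mix 1 (adjusted p = 6.14e-09).

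Of 7 partners of de novo methylation 5 passed the filter, of which 4 fell with mix 2 and all 5 with mix 1 (median -0.53 and -0.79), and none rose. They included NSD2, which places a histone mark that draws in DNMT3A (-1.65 and -1.33, adjusted p = 3.44e-11 and 4.14e-10), and QSER1, a protein that works with TET1 against de novo methylation (-1.19 and -0.97, adjusted p = 3.83e-10 and 4.2e-09). DNMT3L and ZFP57 lay below the filter.

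Genes of proteins that read methylated CpGs went both ways, as all genes did. Of 6 measured, 2 were lower and 1 higher with mix 2 and 1 lower and 3 higher with mix 1 (median -0.10 and 0.27). MBD2 fell (-0.52 and -0.45, adjusted p = 7.71e-07 and 3.91e-06), and ZBTB38 rose by 0.55 and 0.71 (adjusted p = 9.78e-06 and 7.94e-07). ZBTB4, named after its values were seen, was at 9.30 ± 0.06 with mix 2 and 10.83 ± 0.07 with mix 1, against 9.44 ± 0.09 in control (SD, n = 4 each), so that it rose with mix 1 (1.39, adjusted p = 6.36e-11) and did not pass with mix 2 (-0.14, adjusted p = 0.0676).

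Among 12 measured partners of oxidation and repair, 7 fell and 4 rose with mix 2, and 8 fell and 4 rose with mix 1 (median -0.31 and -0.49). CXXC4 and CXXC5, CpG-binding proteins related to TET partners that act on TET2, rose. The rise of CXXC5 was 0.96 and 1.36 (adjusted p = 3.02e-09 and 7.53e-11). That of CXXC4 was 1.38 and 2.17, from a control level of 4.88, below the filter value. CXXC4 passed the filter through its levels with the mixes (6.26 and 7.05), so it is given without adjusted p-values. Its low control signal can limit the size. The uracil glycosylase UNG fell (-2.70 and -2.30, adjusted p = 1.6e-12 and 1.18e-11), and the stress gene GADD45B fell as well (-1.83 with either mix, adjusted p = 3.07e-11 and 3.7e-11). TDG, the glycosylase that removes TET products, changed by -0.82 with mix 2 (adjusted p = 4.78e-09) and by -0.47 with mix 1 (adjusted p = 2.13e-06); it is named after its values were seen.

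The methyl donor cycle, which makes S-adenosylmethionine, had 5 of 6 genes measured. With mix 2, 3 fell and 2 rose, and with mix 1, 4 fell and 1 rose (median -0.27 and -0.77). AHCY, which clears the by-product of methylation, fell (-1.14 and -1.30, adjusted p = 4.52e-10 and 1.29e-10), MTR, methionine synthase, fell (-0.34 and -0.77, adjusted p = 1.5e-05 and 2.57e-09), and the AHCY-like gene AHCYL1 rose by 0.16 and 0.20 (adjusted p = 0.0373 and 0.0121). Without the filter on low values AHCYL1 did not pass with mix 2 (adjusted p = 0.0673). MAT2B, a regulatory subunit of the enzyme that makes the donor and named after its values were seen, went opposite ways, with 0.31 under mix 2 (adjusted p = 0.000267) and -1.55 under mix 1 (adjusted p = 1.27e-11).

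All 18 S phase genes fell with both mixes, with a median of -2.82 under mix 2 and -2.11 under mix 1. Of these, 12 were lower with mix 2 than with mix 1 (25.0% of all genes were). Cyclin E2 (CCNE2) had a change of -4.31 and -3.17 (adjusted p = 7.42e-13 and 2.04e-11), and the replication factor CDC45 had a change of -3.92 and -3.01 (adjusted p = 7.94e-13 and 1.5e-11). The list ran from -4.31 to -0.58 under mix 2 and from -3.30 to -0.35 under mix 1, the smallest change in each being that of E2F1, named after its values were seen. UHRF1 (-3.71 and -3.10) had 3 of the 18 genes below it with mix 2 and 2 with mix 1. HELLS had 16 and 8 below it on its brightest probe set (-1.95 and -2.16). Its probe sets ran from -2.82 to -1.89 with mix 2 and from -2.41 to -1.67 with mix 1, so its place depends on the probe set. DNMT1 (-1.40 and -1.43) had 17 and 16 below it, so that DNMT1 changed less than nearly all of the list. CDCA7 changed by -3.58 and -3.80 on its brighter probe set and by -2.70 and -2.68 on the other. Whether fewer cells in S phase had a part in these changes was not tested.

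**Figure D5:**
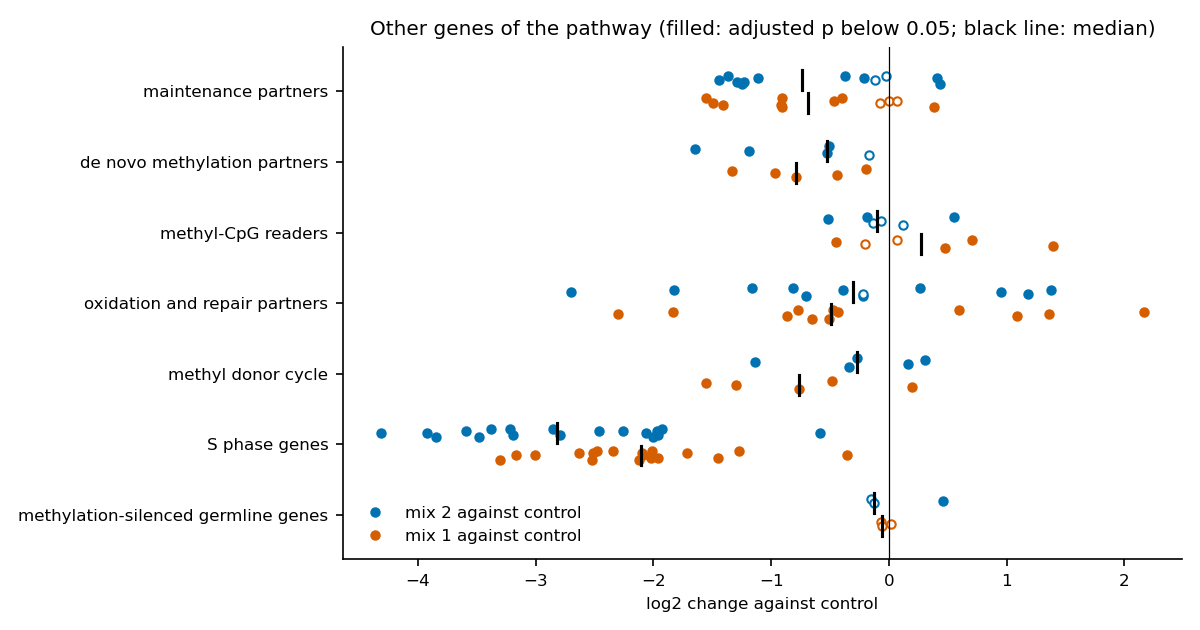
Changes against control (log2, horizontal axis) of the genes of 7 lists that passed the filter, blue for mix 2 and orange for mix 1; filled points have an adjusted p below 0.05 and black lines are medians. All S phase genes lie left of 0, and the oxidation and repair list spreads from -2.70 to 2.17.

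The gene whose levels followed a member most closely over the 12 arrays was read as a Pearson correlation, which here mostly follows the 3 groups. It was the lamin gene LMNB1 for UHRF1 (r = 0.998), the cytokine gene IL11 for DNMT1 (0.998), FAM83D for HELLS (0.998) and the nuclear pore gene SEH1L for CDCA7 (0.998). For TET1 it was the cytidine deaminase gene APOBEC3G (0.996), for TET2 TM9SF2 (0.993) and for TET3 RAB7A (0.988). Correlations were lower for DNMT3A (FTO, 0.986), DNMT3B (CITED2, 0.978) and UHRF2 (MAPKAP1, 0.965). The second in order were SPC25, ZNF239, LRR1, U2SURP, RHOB, CHSY1, LSR, SERPINH1, DCAF12 and CREB5 for the members in the order just given.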

How the data were processed

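RNA of 12 cultures was hybridised to 1 Affymetrix array each. The deposited table holds log2 values per probe set, for which the submitters' processing notes name RMA without software or options. RMA usually brings arrays to a common distribution, and array medians lay within 5.69 to 5.78, so a shift of all genes would not be visible. Of 54675 probe sets, 41091 with exactly 1 gene symbol were used, with symbols updated by gene ID through the RefSeq table of GRCh38.p14. For genes, the brightest probe set with a mean above the 40th percentile (5.46 log2) was taken, giving 13225. Differences were fitted with limma (3.58.1, R 4.3.3): 3 group means, 12 arrays, 9 residual degrees of freedom, default eBayes, Benjamini-Hochberg over all genes or all probe sets, two-sided, threshold 0.05; the code was tested on simulated data. The 95% intervals are unadjusted.

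The 10 genes, the lists and the tests were chosen with earlier results of these data known. Named were all 10 genes, the 2 genes most alike to each, YAP1, WWTR1 and, of each list, up to 2 genes per direction called the same way with both mixes. No gene of the germline list met this. Both mixes share 1 set of control arrays. Replicates were parallel cultures of 1 line, so p-values measure the spread between such cultures. Promoters came from the RefSeq tables of GRCh38.p14, where all 10 genes matched.

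Deviations of same-letter arrays (A to D) from their group means correlated at 0.370, 0.251, 0.409 and 0.340 between mix 1 and control. The labels do not say whether letters pair the arrays, so the main fit did not pair them. A fit with a replicate block is given below. Replicate B of mix 1 was matched best by A of control and not by B, and whether the arrays pair by letter or part as A and B from C and D was not tested. Same-letter correlations were 0.119, 0.0338, 0.0481 and 0.212 between mix 2 and control, and 0.273, -0.0853, 0.202 and 0.191 between the mixes. The number of arrays limits precision.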

Additional observations from a re-analysis of the deposited data

Results flagged for a closer look

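In HELLS, 1 array of 1 probe set, the one that changed most of its 5 with either mix, lay far from the rest of its group: replicate C of mix 1 was at 7.03 log2, while replicates A, B and D were at 8.03, 7.98 and 7.91. Of 66 groups of 4 arrays examined, over 22 probe sets, this was the only 1 flagged. Chance alone flags about 1 in 20 groups, so this 1 flag is no more than chance gives. The same probe set also spread widely with mix 2 (7.37, 6.98, 6.97 and 7.96), against 10.42, 10.11, 9.94 and 10.10 in control.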

How the results depend on the processing

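The changes of the 10 genes were recomputed without a filter, with a filter at the 60th percentile, with probe sets averaged per gene, without shared probe sets, with centred arrays, with only 2 groups in the fit, with a replicate block and without each array in turn. Of 564 such values 551 kept their side of the threshold, 6 lost their call, 6 gained one and 1 reversed. Among the 551, no called value changed direction, while an uncalled one could change direction and still be counted. The reversed one was HELLS between the mixes, at -0.131 with the mean of its probe sets. Without shared probe sets only 3 genes were called lower with mix 1, since DNMT1 and DNMT3B then had no probe set. With the replicate block TET3 passed with mix 2 against control (-0.25, adjusted p = 0.0111), where same-letter correlations were at most 0.212. No call of the 10 genes changed for mix 1 against control or between the mixes. With centred arrays UHRF2 did not pass between the mixes (-0.22, adjusted p = 0.0548). CDCA7 gained a call between the mixes at the 60th percentile and without mix 1 replicate A or B. Those calls are not read as results, since its change under mix 1 was known when the group was chosen. The other changed calls stand beside their genes. Centring moved the median of all genes by -0.02 with mix 2 and -0.03 with mix 1. Signals near background limit the sizes given for the dimmer CDCA7, HELLS, TET1 and DNMT3A probe sets.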

Other observations

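Germline genes that promoter methylation keeps silent in body cells were followed as a further readout. Of 16 such genes 3 passed the filter, of which 1 was higher with mix 2 (36.7% of all genes were) and none with mix 1 (34.8%), and none was lower (31.9% and 32.3%). In the fit without a filter, where 15 had a probe set, 2 were lower and 2 higher with mix 2, and 3 lower and 1 higher with mix 1, with medians of -0.08 and -0.03. Over all probe sets without a filter, 21.4% were lower and 22.9% higher with mix 2, and 21.2% and 22.0% with mix 1. The counts thus say nothing particular about this list. The gene called higher after the filter with mix 2 was MAGEC1, at 7.90 ± 0.16 log2 with mix 2 and 7.46 ± 0.08 with mix 1, against 7.44 ± 0.07 in control (SD, n = 4 each). TDRD6 was at 5.45 ± 0.11 with mix 2 and 5.94 ± 0.18 with mix 1, against 4.29 ± 0.33 in control, below the filter as a gene (changes of 1.16 and 1.65, adjusted p = 3.35e-06 and 7.56e-08 without a filter). Called lower without a filter were MAEL (-0.46 with mix 2 and -0.56 with mix 1), DDX4 (-0.22 and -0.33) and, with mix 1 only, MAGEA1 (-0.32), all below the filter. These genes, like MAGEC1 and TDRD6, are named after their values were seen. DNA methylation itself was not measured here.

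The third probe set of TET2 parted replicates A and B from C and D: it was at 5.12 and 4.97 against 6.68 and 7.65 log2 with mix 1, and at 4.55 and 4.76 against 5.76 and 6.48 in control. With mix 2 the values were 6.35, 5.83, 6.41 and 5.71. TET3 was lower on C and D than on A and B with mix 1 and in control (9.30 and 9.21 against 9.56 and 9.68, and 8.45 and 8.33 against 8.72 and 8.89). The labels give no batch for these arrays.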
